A study of Mus musculus with 9 samples.

Results

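Whole ovaries of mice that became obese on a high-fat diet (HFOB) were compared with those of mice that stayed lean on the same diet (HFLN). The comparison rests on the 6 libraries of those groups, 3 animals in each, of 9 in the series. All animals were C57BL/6J, an inbred strain in which weight gain on such a diet varies between individuals, and were 15 weeks old. HFOB and HFLN animals had eaten food with 60% fat for 10 weeks, and the 3 control animals had eaten standard chow with 16% fat. Control is used here only as a reference for direction. Membership of HFOB or HFLN was an outcome in the animal and was not assigned. The groups therefore share the diet and differ in body weight and in whatever goes with it. The labels give no body weight and no stage of the oestrous cycle.

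The table holds 1 FPKM per gene and group, that is fragments per kilobase of transcript, scaled to sequencing depth, with a deposited lower and upper bound (the deposited interval). Animals within a group cannot be seen, so no SD, n or p-value goes with any value, and how many of the 3 animals carry a difference is unknown. The number of reads per library is not in the table. Differences are log2((HFOB + 1)/(HFLN + 1)), called the log2 difference. This scale understates the difference of genes with low FPKM. A gene met the rule when its log2 difference was at least 1 in size and the deposited intervals of HFOB and HFLN did not overlap. Of 33450 rows, 12538 protein-coding genes with a single symbol had at least 1 FPKM in either group and a valid estimate in both.

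The ovary is made of follicles, in which granulosa and theca cells surround an oocyte, of corpora lutea that make progesterone from cholesterol, and of stroma and vessels. It lies in a bursa next to the ciliated oviduct and in a pad of white fat, so small amounts of those tissues can come with it at dissection. The ovarian identity of the libraries was plain. The zona pellucida gene Zp3 was at 53.0 FPKM in lean HFLN and 54.4 in obese HFOB ovaries, and Amh, a granulosa hormone, at 176 and 187. Ovgp1, the oviduct's secreted glycoprotein, was also present, at 369 FPKM in chow-fed control, 432 in lean HFLN and 307 in obese HFOB.

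The genome-wide difference between obese and lean ovaries on the diet was small. The median log2 difference over all 12538 genes was -0.01, and the central 95% of genes lay between -0.49 and 0.31. Higher values in HFOB were found for 46.6% of genes and lower values for 53.4%. With both groups rescaled to the same sum over protein-coding genes, that median moved by -0.11 and the split became 17.9% higher and 82.1% lower. As deposited, the sums were 434480 FPKM in HFLN and 474030 in HFOB. Of these, 3 rows (Cmss1, Filip1l and Lars2) held 5489 and 22003 FPKM, so the rescaled values depend in part on those rows. Differences of gene groups are therefore read against the median of all genes, which was -0.12 after rescaling, and small list medians have their rescaled values beside them. Counts of lower genes after rescaling are likewise read against the 82.1% of all genes. Deposited intervals were wide, with a median distance from value to bound of 44.1% of the value in HFLN and 44.7% in HFOB. They separated the groups for 6 genes, or 0.0479% of those tested.

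Only 5 genes met the rule. In HFOB 3 were higher, 0.0239% of genes, and 2 were lower, 0.016%. All 3 higher genes were under 1 FPKM in HFLN and entered through HFOB alone, and none of them met the rule with a pseudocount of 5 or a minimum of 5 FPKM. With symbols of several rows left out, 0 lower genes met it. The first higher gene was Lep (chromosome 6, 29060221 to 29073876), which encodes leptin, the hormone that fat cells release in proportion to fat stores. Lep stood at 0.223 FPKM in chow-fed control, 0.332 in lean HFLN (deposited interval 0.0392 to 0.625) and 2.101 in obese HFOB (0.759 to 3.44). HFOB alone was high, 6.33-fold above HFLN, and control and HFLN were both under 1 FPKM. The other higher genes encode histones that are made as DNA is copied. H3c2 stood at 2.18 in chow-fed control, 0.260 in lean HFLN and 4.28 in obese HFOB, and H2ac13 at 0.662, 0.369 and 2.12 FPKM.

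Both lower genes are uncertain. Ccl21c, one of several near-identical genes for the chemokine CCL21 that draws T cells and dendritic cells, stood at 0.405 FPKM in chow-fed control, 1.82 in lean HFLN (0.322 to 3.32) and 0.0160 in obese HFOB (0 to 0.141). Its row lies on a scaffold of chromosome 4 without a fixed position there. With 2 other rows of the symbol at 0 in all groups, reads may have been divided among copies. Pramel51 was listed at 0 in control and HFOB and at 16.5 FPKM in HFLN, while a second row of the same symbol had 5.69 FPKM in chow-fed control, 6.56 in lean HFLN and 6.83 in obese HFOB. Ryr1, a calcium release channel of muscle, had separate intervals with a smaller difference, at 0.360, 1.07 and 0.265 FPKM in control, HFLN and HFOB.

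With no requirement on intervals, 247 genes (1.97%) were at least 1.5-fold lower in HFOB on the log2(FPKM + 1) scale and 51 (0.407%) at least 1.5-fold higher. Of the 247 lower genes, 30 were on the list of motile cilia genes and 13 on the list of interferon response genes. A further 14 were other genes of the Cfap and Drc families, whose names denote cilium and flagellum proteins. Of the 51 higher genes, 21 were replication-dependent histones, but 17 of these 21 were under 1 FPKM in HFLN and were measured only because HFOB was higher, which fixed their direction. The deposited intervals of HFOB and HFLN overlapped for 292 of these 298 genes.

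**Figure D1:**
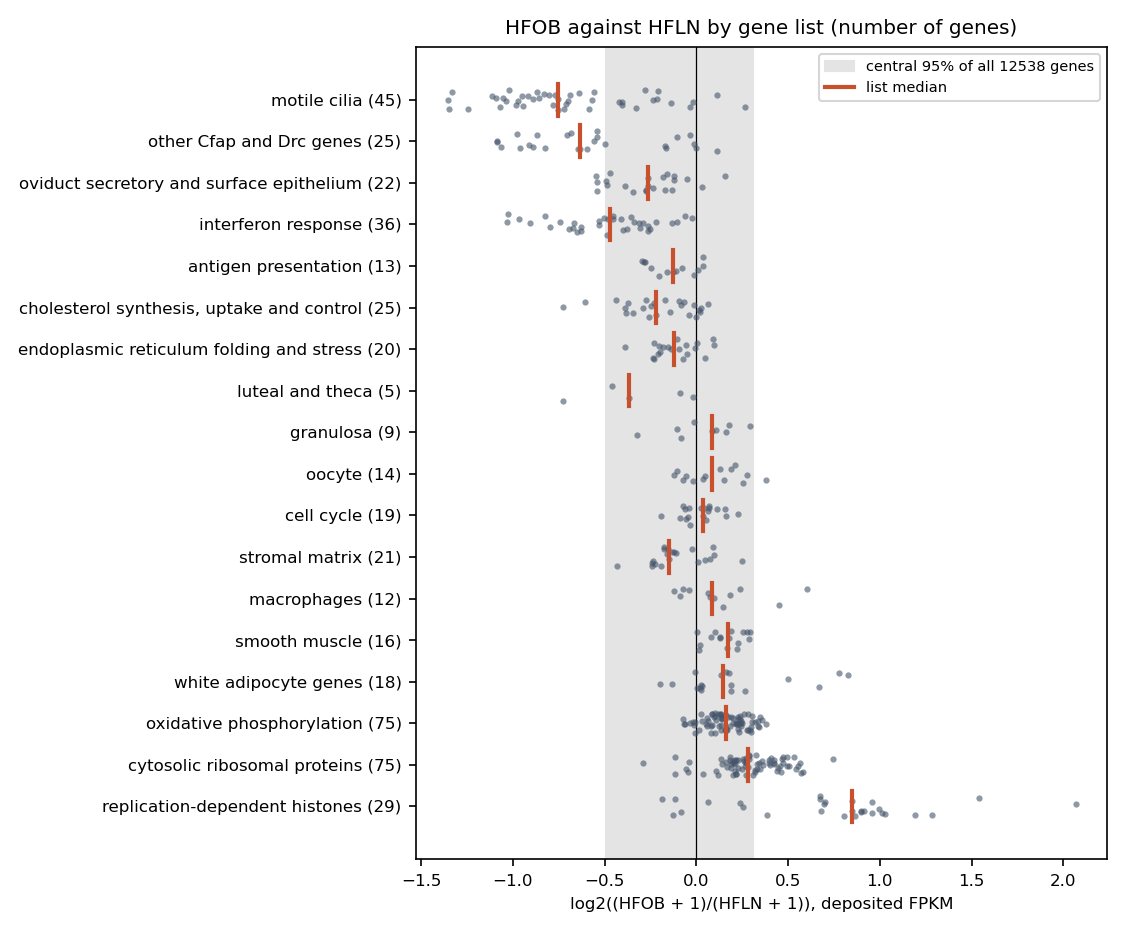
Log2 differences of HFOB against HFLN for each measured gene (points) of 18 lists, with list medians (bars) and the central 95% of all genes (shaded). Cilia and interferon genes lie to the left with medians of -0.75 and -0.47, and histones to the right with 0.85. The small positive medians of smooth muscle, white adipocyte and oxidative phosphorylation genes drop to 0.046, 0.035 and 0.035 after rescaling, when the median of all genes is -0.12. Above the median of all genes they stand by 0.18, 0.16 and 0.17 as deposited and by 0.17, 0.16 and 0.16 after rescaling.

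Interferons are antiviral cytokines. Sensors of viral nucleic acids start their production, STAT and IRF transcription factors carry the signal to the nucleus, and a set of effector genes then blocks viral replication. All 36 measured interferon response genes, of 47 listed, were lower in HFOB than in HFLN. Their median log2 difference was -0.47, against -0.01 over all genes, and 13 of them were at least 1.5-fold lower. None met the rule. The summed FPKM of the list was 1198 in chow-fed control, 1425 in lean HFLN and 1132 in obese HFOB, so HFLN stood above both other groups. Control lay nearer to HFOB for 34 of the 36 genes, where 55.6% of all genes did so. Among the 247 genes at least 1.5-fold lower in HFOB, 75.7% did so.

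The factors of this response bind promoters at the interferon-stimulated response element, and its core, the letters GAAANNGAA on either strand, was searched in RefSeq promoters of GRCm38.p6 from 250 bases before to 50 after the start site. It was found in 17 of 32 promoters of measured list members (53.1%) and in 8.56% of all 32851 promoters. Promoters were found for 28 of the 36 members, and 16 of those 28 had a match. A match is a stretch of letters and not a shown binding site. The 90-base windows that follow, all before the start site, are those of an IFIT gene (chr19:34640760-34640849, plus strand), the ubiquitin-like modifier Isg15 (chr4:156200827-156200916, minus strand), a gamma-response GTPase (chr3:142559954-142560043, plus strand) and an OAS gene (chr5:120907526-120907615, minus strand), with each match in capitals.
Ifit1: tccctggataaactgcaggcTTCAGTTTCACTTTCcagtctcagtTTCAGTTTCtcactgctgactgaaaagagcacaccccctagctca
Isg15: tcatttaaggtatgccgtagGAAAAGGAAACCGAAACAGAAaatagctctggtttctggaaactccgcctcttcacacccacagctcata
Gbp3: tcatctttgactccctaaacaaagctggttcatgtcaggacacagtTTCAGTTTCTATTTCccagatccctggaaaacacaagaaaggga
Oas1a: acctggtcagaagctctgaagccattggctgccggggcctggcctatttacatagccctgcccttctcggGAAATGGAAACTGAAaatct
Isg15 holds 3 matches that overlap in a row, Gbp3 and Oas1a hold 2 that overlap, and Ifit1 holds 2 that overlap and 1 apart from them.

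Ifit1, which binds viral RNA lacking host cap marks, stood at 3.03 FPKM in chow-fed control, 6.50 in lean HFLN (2.89 to 10.1) and 2.85 in obese HFOB (0.725 to 4.97). HFLN was the high group, and HFOB was at the level of control. Usp18, which removes ISG15 from proteins and dampens the receptor, had 4.89, 9.06 and 3.92 FPKM in control, HFLN and HFOB. Isg15 itself had 17.3, 31.0 and 16.1 FPKM. In that order of groups, Oasl2 stood at 24.9, 37.9 and 23.7 and Oas2 at 4.76, 9.31 and 5.48 FPKM. OAS enzymes make a short nucleotide that activates RNase L, and Oasl2 belongs to the same family. All 6 measured IFIT and OAS genes were lower in HFOB, with log2 differences from -0.96 to -0.31.

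Among transcription factors of the response, Irf7, the amplifier of type I interferon production, stood at 14.3 FPKM in chow-fed control, 27.2 in lean HFLN (16.7 to 37.6) and 12.8 in obese HFOB (6.99 to 18.6). Irf1, at 29.6, 33.2 and 31.8 FPKM, had the smallest difference of the 4 factors measured. The 5 sensors had log2 differences between -0.83 and -0.26. Zbp1, a sensor of nucleic acids in the Z conformation, was at one end with 2.53, 5.23 and 2.51 FPKM. Ddx58, which encodes RIG-I, was at the other with 10.1, 13.1 and 10.8 FPKM. The GTPase Gbp3, part of the defence induced by interferon gamma, had 10.6, 17.5 and 10.0 FPKM, and the chemokine Cxcl10, which attracts T cells, 4.32, 5.51 and 3.10. Bst2, which tethers budding virus to the cell, was nearly level at 405, 419 and 412 FPKM.

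**Figure D2:**
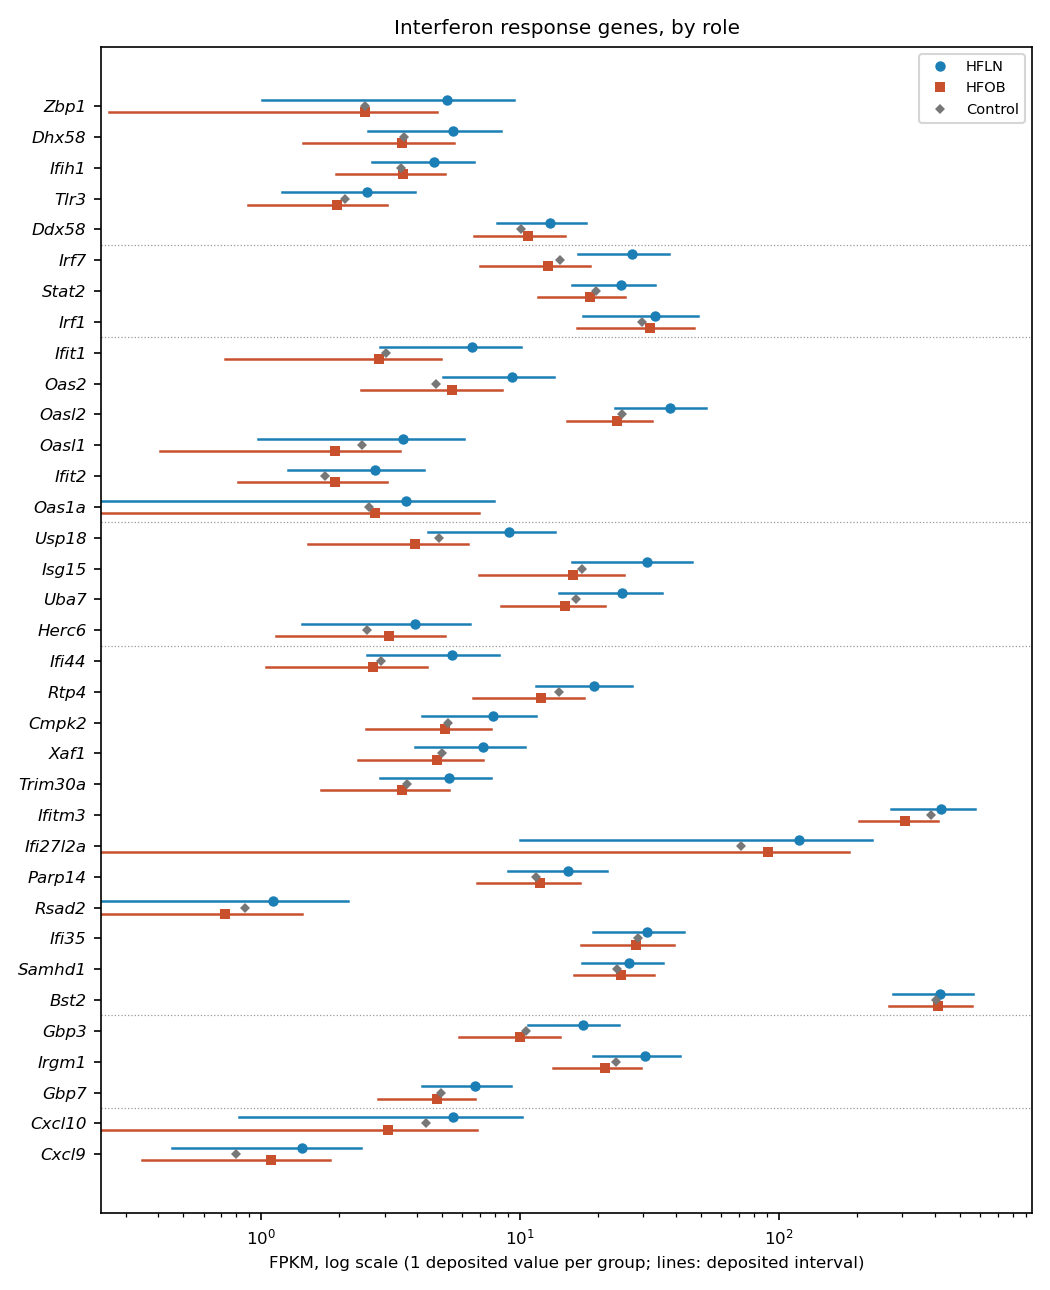
FPKM (log axis) of 35 of the 36 measured interferon response genes in HFLN, HFOB and control, by role; lines are the deposited intervals of HFLN and HFOB, and dotted lines divide the roles in the order sensors, transcription factors, IFIT and OAS, ubiquitin-like system, other effectors, GTPases and chemokines. The HFOB value lies to the left of the HFLN value in all 35 genes, and all interval pairs overlap.

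A further 8 listed genes shared a row with a neighbour and were kept apart. The joint row of Ifit3 and Ifit3b stood at 5.99 FPKM in chow-fed control, 14.7 in lean HFLN and 6.41 in obese HFOB, and that of Igtp and Irgm2 at 22.2, 32.0 and 20.9. The joint row of Oas1c and Oas1g went the other way, at 12.3, 13.4 and 14.9 FPKM. Antigen presentation, which interferons also raise, was less far apart. All 8 class I genes were lower in HFOB (median -0.23, and -0.32 after rescaling), B2m among them at 653, 785 and 644 FPKM in control, HFLN and HFOB. Of 5 class II genes 3 were higher and 2 lower, with a median of 0.01. After rescaling all 5 were lower with a median of -0.12, so both classes were then lower, and class II was at the median of all genes under both scalings.

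Markers of blood cells were read beside these genes. Macrophage genes were higher in 8 of 12 cases with a median of 0.08 (5 of 12 and -0.03 after rescaling), and C1qa stood at 117, 115 and 123 FPKM in control, HFLN and HFOB. Of the T cell markers, Cd4 stood at 0.944, 1.15 and 1.02 FPKM and Cd3e under 1 FPKM in all groups. The part of blood cells in the interferon genes was not tested. In whole ovaries, fewer cells of a type and less RNA per cell cannot be told apart, here or in the lists that follow.

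Motile cilia are beating cell projections with an axoneme of microtubules, dynein motors, radial spokes and a central pair. In the female tract they belong to the ciliated cells of the oviduct, where they move the egg, and the factors FOXJ1 and RFX switch on their genes. Of 45 measured genes of motile cilia, out of 57 listed, 43 were lower in HFOB than in HFLN and 2 were higher. The median log2 difference was -0.75, and 30 were at least 1.5-fold lower. None met the rule. Their summed FPKM was 594 in chow-fed control, 790 in lean HFLN and 483 in obese HFOB. Control lay between the diet groups for 39 of the 45 genes, against 29.4% of all genes, and nearer to HFOB for 36, against 55.6%. Among all 247 genes at least 1.5-fold lower in HFOB these shares were 93.5% and 75.7%, so the position is not particular to cilia genes.

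RFX factors bind an X-box made of paired short sites, and one such site, GTTGCCNNG, was searched on both strands of the same RefSeq promoters. It was found in 16 of 44 promoters of measured cilia genes (36.4%), from 15 of the 38 genes with a promoter, and in 5.00% of all promoters. The 90-base windows shown, again all before the start site, belong to 3 of the genes with the widest differences and to an axonemal dynein: Dynlrb2 (chr8:116504925-116505014, plus strand), Ccdc153 (chr9:44240505-44240594, plus strand), Sntn (chr14:13670786-13670875, plus strand) and Dnaic2 (chr11:114727329-114727418, plus strand). The RFX site is in capitals.
Dynlrb2: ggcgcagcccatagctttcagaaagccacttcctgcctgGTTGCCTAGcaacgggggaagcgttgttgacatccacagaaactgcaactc
Ccdc153: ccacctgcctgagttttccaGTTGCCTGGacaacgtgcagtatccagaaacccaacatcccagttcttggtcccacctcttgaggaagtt
Sntn: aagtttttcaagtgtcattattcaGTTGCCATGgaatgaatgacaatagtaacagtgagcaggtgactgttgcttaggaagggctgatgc
Dnaic2: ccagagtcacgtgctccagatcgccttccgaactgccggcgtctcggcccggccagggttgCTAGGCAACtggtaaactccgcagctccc
Each of these windows holds 1 match, on the printed strand in 3 of them and on the other strand in Dnaic2.

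Foxj1, the master regulator of motile cilia, stood at 19.4 FPKM in chow-fed control, 33.5 in lean HFLN (18.5 to 48.5) and 15.6 in obese HFOB (6.78 to 24.5). Other control genes were less far apart. Rfx2 had 3.09, 4.19 and 3.47 FPKM and Rfx3 had 1.56, 1.91 and 1.87, while Ccno, needed to multiply centrioles, was higher in HFOB at 15.0, 13.3 and 16.2. All 8 dynein genes were lower. Dnah5, a heavy chain of the outer arm, stood at 4.44 FPKM in chow-fed control, 8.13 in lean HFLN and 3.44 in obese HFOB. Dnaic2, an intermediate chain of the same arm, stood at 4.19, 7.67 and 3.07, and Dnah2 was nearly level at 15.7, 12.4 and 12.1 FPKM. HFLN was thus the highest group for Dnah5 and Dnaic2 but not for Dnah2.

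The same order of groups was found in the spokes and the microtubule core. Rsph1, a radial spoke head protein, had 18.5 FPKM in chow-fed control, 28.4 in lean HFLN and 14.2 in obese HFOB. Tekt1, a filament inside the doublet microtubules, had 5.69, 8.70 and 3.94 FPKM. Tubb4b, a tubulin that many cell types make, differed less, at 182, 189 and 160. The widest differences lay in other genes of ciliated cells, all 10 of them lower. Tmem212 stood at 20.4, 29.4 and 10.9 FPKM, Ccdc153 at 29.4, 55.6 and 21.5, and Sntn, which encodes the ciliary tip protein sentan, at 6.45, 10.3 and 3.79. Sec14l3 came nearest to separate intervals relative to its level, with 12.6 FPKM in HFLN (6.34 to 18.9) and 4.35 in HFOB (1.83 to 6.86).

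**Figure D3:**
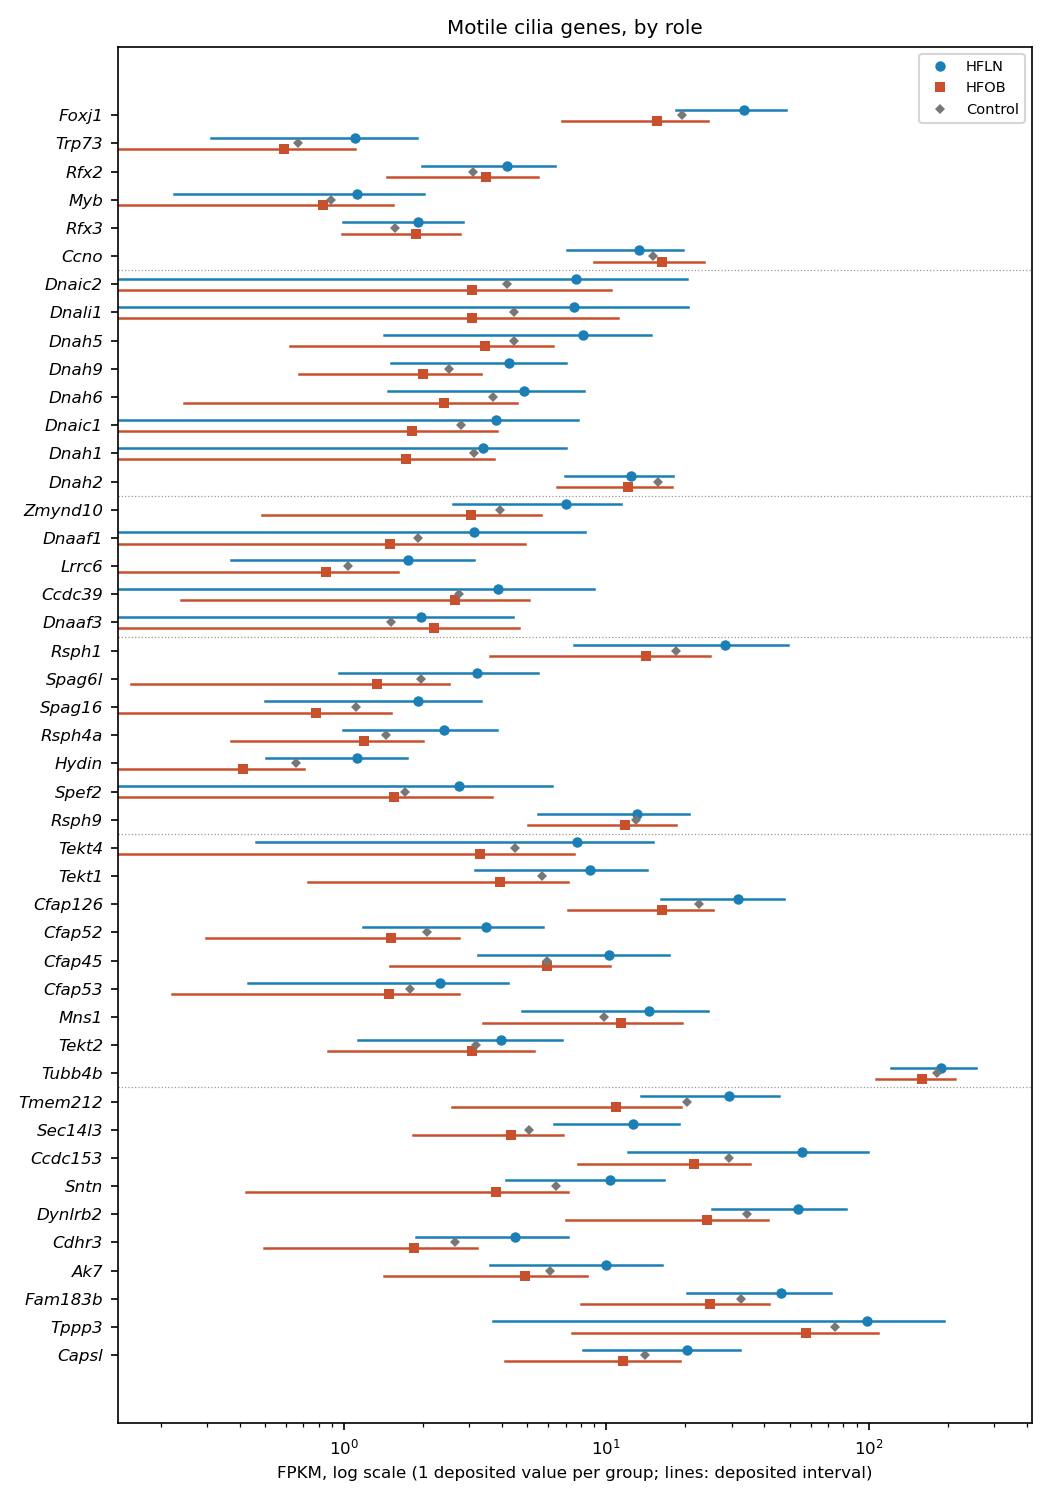
FPKM (log axis) of the 45 measured motile cilia genes in HFLN, HFOB and control, by role; lines are the deposited intervals of HFLN and HFOB, and dotted lines divide the roles in the order transcription control, dyneins, assembly, spokes and central pair, microtubule proteins and other genes. HFOB lies to the left of HFLN in 43 of 45 genes, with Ccno and Dnaaf3 as the exceptions, and control mostly lies between them.

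Genes of the Cfap and Drc families that were not on the list gave the same picture. They were chosen after values were seen, and 23 of 25 were lower in HFOB (median -0.63). Cfap206 stood at 6.42 FPKM in chow-fed control, 12.01 in lean HFLN and 5.12 in obese HFOB. Ssu2 was among the 15 genes with the largest differences downward at 5 FPKM or more, at 5.17 FPKM in chow-fed control, 13.4 in lean HFLN (5.68 to 21.1) and 4.23 in obese HFOB (1.42 to 7.03). Meig1, a gene of sperm formation, had 4.64, 12.4 and 4.64 FPKM, and Pifo, which acts at the base of cilia, 6.56, 10.2 and 3.90.

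Epithelial genes of oviduct secretory cells and of the ovarian surface were lower in 20 of 22 cases, but by less, with a median of -0.27 (21 cases and -0.35 after rescaling). Both exceptions were mesothelial membrane protein genes, of which 2 of 3 were higher with a median of 0.03 (1 of 3 and -0.09 after rescaling). Pax8, a transcription factor of oviduct secretory cells, stood at 4.35 FPKM in chow-fed control, 6.34 in lean HFLN and 4.05 in obese HFOB, and the keratin Krt7 at 39.7, 48.3 and 32.7. Ovgp1 was 1.41-fold lower in HFOB. Wt1, found in surface and other ovarian cells, differed little, at 41.8, 52.8 and 46.8 FPKM. Ciliary genes and epithelial genes other than the mesothelial ones were thus lower together. The amount of oviduct in each sample was not tested as a part of either result.

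Lep was the only fat cell gene that met the rule, and fat cell genes were read by their roles. White fat stores triglyceride in lipid droplets, takes up fatty acids through LPL and CD36, and releases leptin, adiponectin and other hormones. Of 10 hormones, 6 were higher in HFOB and 4 lower, with a median log2 difference of 0.09 (4 higher and -0.03 after rescaling). Adipoq, the gene of adiponectin, stood at 14.7 FPKM in chow-fed control, 11.9 in lean HFLN (5.52 to 18.2) and 21.5 in obese HFOB (11.6 to 31.3). Retn, the gene of resistin, stood at 19.5, 12.8 and 16.4. Of these hormones Lep alone had separate intervals. Angptl4, which inhibits lipoprotein lipase, was near level at 148, 122 and 131 FPKM, and Cfd, the complement factor adipsin, was lower in HFOB at 103, 86.4 and 62.2 with intervals that reach 0.

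Among 18 further genes of white adipocytes, 15 were higher in HFOB (median 0.15), and 10 were higher with a median of 0.035 after rescaling. The list median stood 0.16 above the median of all genes under both scalings. Their summed FPKM was 386 in chow-fed control, 380 in lean HFLN and 460 in obese HFOB. The differences were uneven. Cidec, which fuses lipid droplets, stood at 5.90 FPKM in chow-fed control, 5.75 in lean HFLN and 10.98 in obese HFOB. Fabp4, the fatty acid carrier of adipocytes, stood at 77.2, 87.2 (51.5 to 123) and 139 (84.3 to 194). For Cidec and Fabp4 HFOB was the high group, with control near HFLN. Pck1, an enzyme of glycerol supply, had 2.07, 1.97 and 4.10 FPKM, and Dgat2, which completes triglycerides, 7.76, 8.21 and 12.02. By contrast Plin4, Cd36 and Pparg, the master factor of adipocytes, had log2 differences of 0.01, 0.02 and -0.01.

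Car3, a carbonic anhydrase abundant in fat and muscle, stood at 63.4 FPKM in chow-fed control, 52.8 in lean HFLN and 93.8 in obese HFOB. It was among the 15 genes with the largest differences upward at 5 FPKM or more, as were Adipoq, Cidec, Fabp4 and Sncg, the gene of gamma-synuclein, at 5.65, 7.28 and 16.9. Pcp4, a small regulator of calmodulin, was another, at 4.19, 3.95 and 12.7 FPKM. Ucp1, the defining gene of brown fat, was under 1 FPKM in both diet groups. Of 5 measured brown adipocyte genes 2 were higher and 3 lower, with a median of -0.07 (-0.19 after rescaling). Cidea was the furthest down, at 2.19, 3.38 and 1.36 FPKM, with intervals that reach 0. Fat tissue on the ovary was not measured, and its part in Lep and the other genes was not tested.

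**Figure D4:**
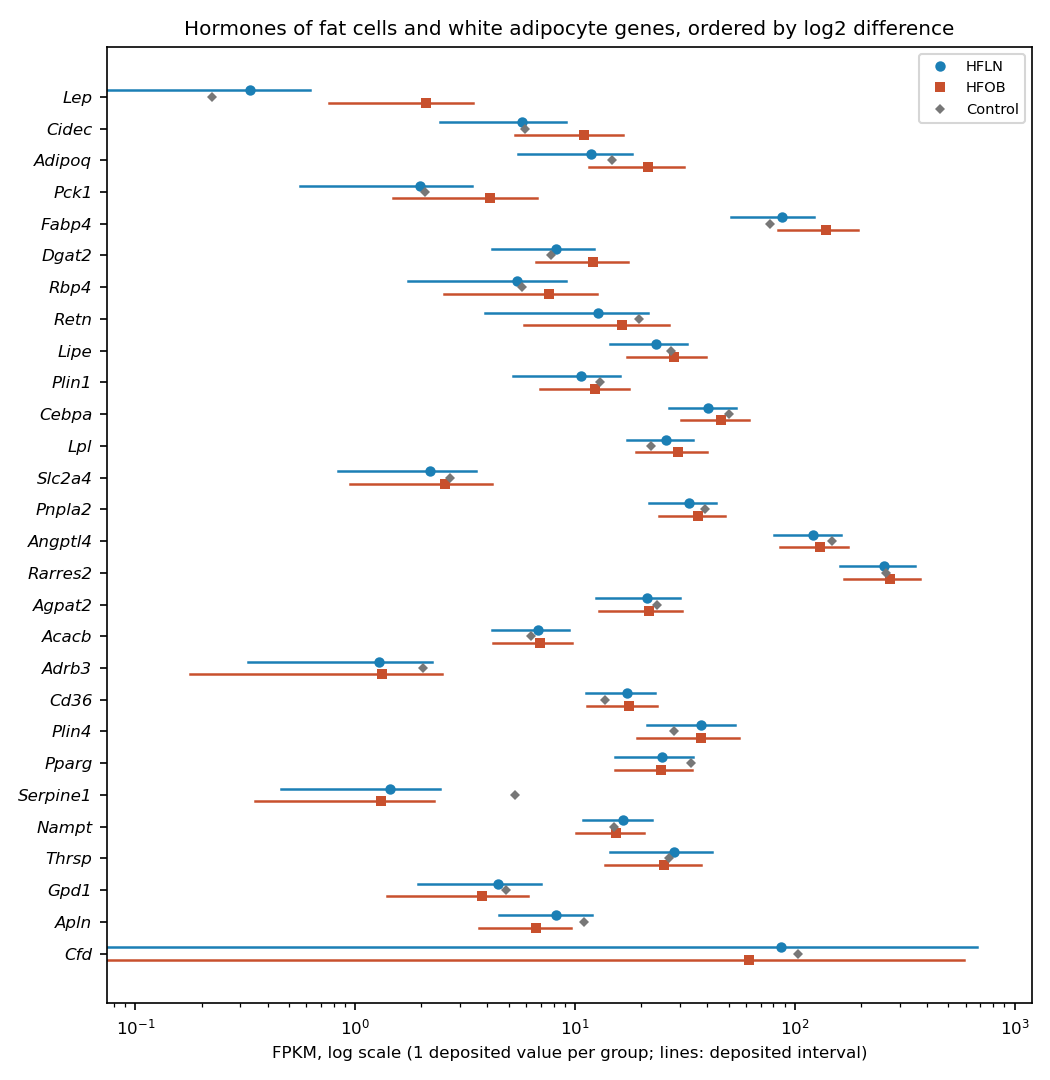
FPKM (log axis) of 10 fat-cell hormones and 18 white adipocyte genes in HFLN, HFOB and control, ordered by log2 difference; lines are the deposited intervals of HFLN and HFOB. Lep, at the top, is the only gene whose intervals are apart, and from Lipe down the HFLN and HFOB values lie close together or, at the foot, in the reverse order. After rescaling 10 of the 18 adipocyte genes stay higher, against 17.9% of all genes.

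The receptors that read fat hormones differed little between obese and lean ovaries. Lepr, the leptin receptor, stood at 3.31 FPKM in chow-fed control, 3.30 in lean HFLN and 3.40 in obese HFOB, and the adiponectin receptors Adipor1 and Adipor2 had log2 differences of 0.15 and -0.12. Downstream, leptin and other cytokines act through JAK2 and STAT3, and SOCS proteins end the signal. Jak2 and Stat3 had log2 differences of -0.11 and -0.07. Socs3, the feedback inhibitor of the leptin receptor, stood at 39.4 FPKM in chow-fed control, 31.4 in lean HFLN (6.74 to 56.1) and 13.6 in obese HFOB (6.04 to 21.1). HFOB was the low group, with a log2 difference of -1.16. A second row of Socs3 had 12.4, 18.1 and 5.31 FPKM, in the same direction. Socs1, which also restrains interferon signalling, stood at 37.2, 23.9 and 14.4.

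The feedback and acute-phase genes were listed after values were seen. All 4 feedback inhibitors were lower in HFOB, though Cish and Socs2 only by log2 differences of -0.17 and -0.09. Among acute-phase proteins, which STAT3 and NF-kB induce in inflammation, Lcn2, the gene of lipocalin-2, stood at 14.9 FPKM in chow-fed control, 21.8 in lean HFLN and 11.6 in obese HFOB. Hp, the gene of haptoglobin, stood at 21.6, 30.0 and 20.3, and Saa3 at 16.0, 27.1 and 18.7. HFLN was again the highest group for these 3 genes. Orm1 went the other way, at 1.13, 1.04 and 2.08 FPKM. Cytokines and chemokines were divided, 6 higher and 6 lower of 12, with Ccl2 at 3.43, 2.42 and 3.33 and Il1b at 3.22, 1.87 and 1.37 FPKM. Insulin signalling showed no wide difference. Insr and Irs1 had log2 differences of -0.10 and 0.01, and Irs2 was at 6.02, 5.53 and 6.79 FPKM.

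Luteal and theca cells make steroids from cholesterol that they take up or synthesise, and SREBP-2 raises the genes of both routes when sterols are scarce. Genes of cholesterol synthesis, uptake and control were lower in HFOB in 21 of 25 cases, with a median of -0.22. After rescaling all 25 were lower, against 82.1% of all genes. None met the rule, and control lay above both diet groups for 18, against 4610 of all 12538 genes. Within the list, enzymes that close and modify the sterol ring had a median of -0.36 over 10 genes, against -0.08 over the 8 earlier enzymes (-0.48 and -0.18 after rescaling). Hsd17b7, which acts in cholesterol synthesis and is abundant in the corpus luteum, stood at 104 FPKM in chow-fed control, 105 in lean HFLN (58.6 to 151) and 63.1 in obese HFOB (37.4 to 88.8). Dhcr7, an enzyme late in the pathway, stood at 50.8, 64.3 and 41.8. HFOB was the lowest group for both genes.

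Of the earlier enzymes, Hmgcs1 stood at 103, 103 and 75.9 FPKM in control, HFLN and HFOB, and was thus lower in HFOB only. Insig1, which holds SREBP in the endoplasmic reticulum, had 24.9, 21.03 and 17.8 FPKM. On the export side 4 of 5 genes were higher in HFOB (3 after rescaling), led by Apoe, the lipoprotein of cholesterol transport, at 2264 FPKM in chow-fed control, 1998 in lean HFLN and 2803 in obese HFOB. Fatty acid synthesis was lower in 8 of 10 genes with a median of -0.19 (9 and -0.30 after rescaling), while Scd1, the desaturase, was higher in HFOB at 22.3, 12.5 and 17.7 FPKM.

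The core letters TCACCCCAC of the sterol regulatory element, searched in the same way, were found in 1 of 23 promoters of list members, that of Hmgcs1, and in 0.551% of all promoters. Only this exact string was searched, and promoters were found for 17 of the 25 measured members. The window (chr13:119690194-119690283, plus strand) is shown with the match in capitals.
Hmgcs1: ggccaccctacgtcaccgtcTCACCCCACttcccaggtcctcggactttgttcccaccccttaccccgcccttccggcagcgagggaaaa

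Steroid synthesis itself was nearly level between the diet groups. Cyp11a1, which makes the first steroid from cholesterol, and Hsd3b1 had log2 differences of 0.03 and 0.06, with intervals that reach 0. After rescaling all 8 genes of the list were lower, as were 82.1% of all genes. The list median stood 0.04 above the median of all genes as deposited and 0.03 above it after rescaling. Star, the carrier of cholesterol into the mitochondrion, was at 147 FPKM in chow-fed control, 230 in lean HFLN (84.1 to 377) and 169 in obese HFOB (86.6 to 251). Cyp19a1, the aromatase, was at 20.7, 14.5 and 12.2. Luteal and theca genes were lower in HFOB in all 5 measured cases, of 6 listed, their median being -0.37 (-0.49 after rescaling). Besides Hsd17b7, which both lists hold, these were led by Lhcgr, the receptor of luteinising hormone, at 134, 143 and 104 FPKM, and Prlr, the prolactin receptor, at 36.8, 39.9 and 30.8. The number of corpora lutea was not measured, and its part was not tested.

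Replication-dependent histones are made in S phase, and most of their messages end in a stem-loop and not in a poly(A) tail, while the libraries were made with a kit that selects polyadenylated RNA. Of 58 listed genes, 29 were measured, 25 of them higher in HFOB and 4 lower, with a median log2 difference of 0.85. Of the 29, 17 had under 1 FPKM in HFLN and entered through HFOB alone, which fixes their direction. With no minimum, 41 of 50 histone genes were higher and 9 lower, with a median of 0.50. With at least 5 FPKM, 6 genes were left with a median of -0.010. H1f2, the most abundant at 51.7 FPKM in chow-fed control, 56.4 in lean HFLN and 49.4 in obese HFOB, was among the lower ones. H4c4 stood at 6.95, 1.12 and 5.16 FPKM and H2bc3 at 2.53, 0.178 and 1.86. HFLN was the low group in both, but H2bc3 was under 1 FPKM in HFLN and entered through HFOB alone. A second row of H2bc3 had 0.269, 0.198 and 0.129 FPKM. Control lay nearer to HFOB for 28 of the 29 genes. The entry of 17 of them through HFOB alone favours that position, so the count is only a description. The share was 55.6% over all genes and 64.7% over the 51 genes at least 1.5-fold higher in HFOB.

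Genes of dividing cells did not share this order. Of 19 cell cycle genes, 11 were higher and 8 lower with a median of 0.04, and 3 were higher with a median of -0.08 after rescaling. Mki67 stood at 14.3, 14.4 and 14.1 FPKM in control, HFLN and HFOB, and Mcm2, part of the replicative helicase, at 23.4, 23.9 and 24.6. Rows of RNA outside the protein-coding genes did not all have the same order of groups. The 28 measured rows of small nucleolar RNA summed to 733 FPKM in chow-fed control, 398 in lean HFLN and 606 in obese HFOB. Their median log2 difference was 0.85. The 2554 measured rows with no symbol, whose kind of RNA is unknown, summed to 401090, 178700 and 299792 FPKM. Rmrp, the RNA of RNase MRP, stood at 441 FPKM in chow-fed control, 41.2 in lean HFLN (2.43 to 80.1) and 258 in obese HFOB (116 to 400), and Rpph1, that of RNase P, at 345, 46.2 and 256. HFLN was the lowest group for both, and both differences met the rule. Rnu12, a small nuclear RNA of the spliceosome, met it in the other direction, at 20.4 FPKM in control and 3.53 in HFLN and listed at 0 in HFOB. An exact 0 in this kind of table can be a failed estimate. Of 2 long nuclear RNAs, Malat1 had 500, 181 and 298 FPKM and Neat1 had 216, 238 and 204, so HFLN was the lowest group for one and the highest for the other.

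Some very abundant protein-coding rows had the order of Rmrp and Rpph1. Cmss1 stood at 25903 FPKM in chow-fed control, 3713 in lean HFLN and 14044 in obese HFOB, Filip1l, whose locus overlaps it, at 6843, 1263 and 6612, and Lars2, the mitochondrial leucyl-tRNA synthetase, at 2146, 512 and 1347. The deposited intervals of HFOB reach 0 for these 3 rows. The share of RNA without poly(A) tails in each library is not given in the labels, and its part in the histone values was not tested.

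**Figure D5:**
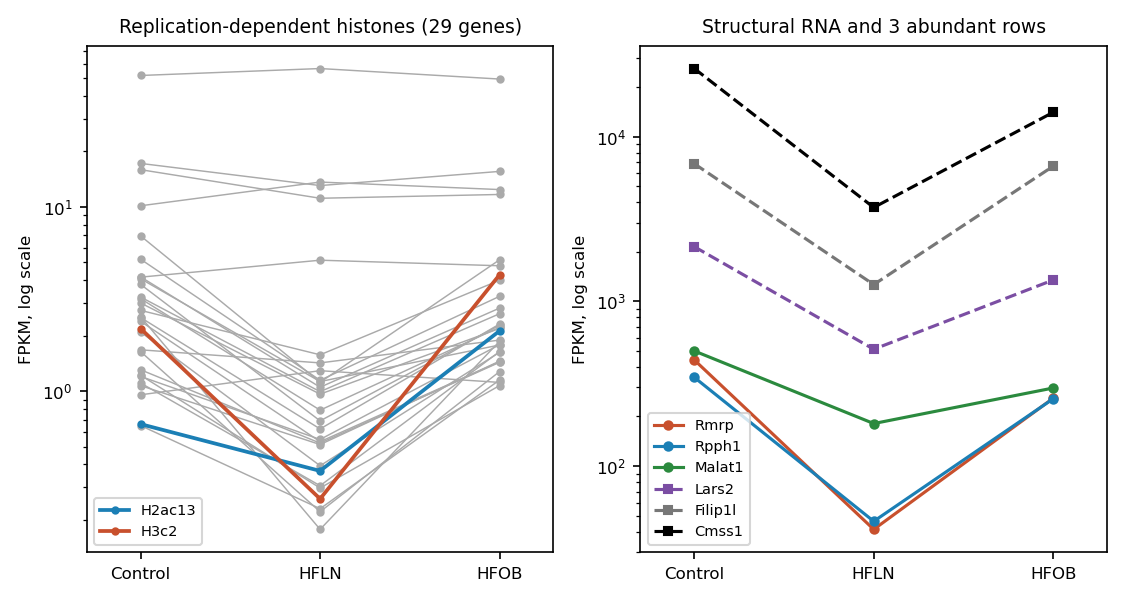
FPKM (log axes) in control, HFLN and HFOB of 29 replication-dependent histone genes (left; H3c2 and H2ac13 in colour) and of 3 structural or nuclear RNA and 3 abundant rows (right); each line is 1 gene and joins 3 separate groups. Most lines in both panels have their lowest point at HFLN, while the 4 most abundant histone genes in control vary less. On the left, 17 of the 29 genes entered through HFOB alone, which favours a low point at HFLN.

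Genes of the cytosolic ribosome and of oxidative phosphorylation, 2 groups listed after values were seen, were shifted by small amounts. Of 75 ribosomal protein genes, 69 were higher in HFOB, with their median at 0.28, and 67 with a median of 0.16 after rescaling. Over all genes 46.6% were higher as deposited and 17.9% after rescaling. The list median stood 0.29 above the median of all genes as deposited and 0.28 above it after rescaling. Rps2 stood at 170 FPKM in chow-fed control, 131 in lean HFLN and 220 in obese HFOB, and Rplp2 at 536, 408 and 609. Of 75 nuclear genes for respiratory chain and ATP synthase subunits, 67 were higher with a median of 0.16, and 49 with a median of 0.035 after rescaling. Their median stood 0.17 above the median of all genes as deposited and 0.16 above it after rescaling. Cox5b, a subunit of cytochrome oxidase, was at 70.4, 51.6 and 67.4 FPKM. Rps2, Rplp2 and Cox5b were thus lowest in HFLN.

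Other cell types of the ovary were close to level. Of 9 granulosa genes 5 were higher and 4 lower with a median of 0.09 (-0.04 after rescaling), and Fshr, the receptor of follicle-stimulating hormone, stood at 16.8, 13.7 and 15.4 FPKM in control, HFLN and HFOB. Inhba, a subunit of activin and inhibin, was lower in HFOB at 74.9, 63.1 and 50.2. Of 14 oocyte genes 9 were higher with a median of 0.09 (7 with a median of -0.03 after rescaling). Gdf9, the growth factor through which the oocyte directs its granulosa cells, stood at 51.4, 50.7 and 56.3 FPKM. No oocyte gene differed by 1.5-fold.

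Each of the 16 smooth muscle genes had a higher value in HFOB, their median being 0.17, and after rescaling 11 did, with a median of 0.046. The list median stood 0.18 above the median of all genes as deposited and 0.17 above it after rescaling. Des, the gene of desmin, stood at 48.6, 49.0 and 60.3 FPKM, and Myh11, the smooth muscle myosin, at 103, 108 and 118. In the stroma the 6 collagens were lower, with Col1a1 at 136, 142 and 121 FPKM, and 15 of 21 matrix genes were lower with a median of -0.15 (19 and -0.26 after rescaling). Of 12 chaperones of the endoplasmic reticulum 11 were lower with a median of -0.19 (12 and -0.31 after rescaling), Pdia3 the furthest at 377, 396 and 335 FPKM. After rescaling 82.1% of all genes were lower too. Among the 12 measured macrophage genes the widest differences were those of 2 genes of lipid-associated cells, Gpnmb at 12.3, 17.0 and 26.4 FPKM and Trem2 at 21.3, 18.03 and 25.01. Of the 5 genes of that role 3 were higher and 2 lower, with a median of 0.18 (0.06 after rescaling). The joint row of Lyz1 and Lyz2, kept apart, stood at 252, 236 and 337 FPKM.

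Lists of the ovulatory cascade and of the early response to stimuli had medians near that of all genes. Of 9 ovulation genes 4 were higher and 5 lower with a median of -0.01 (-0.13 after rescaling). Within that list Areg, an EGF-like signal, was 1.5-fold lower or more, at 1.42, 1.62 and 0.581 FPKM in control, HFLN and HFOB, and Adamts1, a protease of the ovulating follicle, stood at 31.0, 19.2 and 13.9. Of 14 immediate early genes 8 were higher and 6 lower with a median of 0.03 (5 higher and -0.06 after rescaling). Control lay above both diet groups for 13 of them, against 4610 of all 12538 genes. Of 16 clock genes 6 were higher with a median of -0.03 (1 and -0.15 after rescaling), and Dbp, at 32.1, 53.2 and 61.7 FPKM, had the widest difference upward. Over all genes 17.9% were higher after rescaling.

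The position of control differed between the named genes. Of the 247 genes at least 1.5-fold lower in HFOB, control lay between the diet groups for 231 (93.5%) and nearer to HFOB for 187 (75.7%). Of the 51 higher genes, control lay between for 24 (47.1%), above both for 21 and nearer to HFOB for 33 (64.7%). Over all genes the shares were 29.4% between and 55.6% nearer to HFOB, and control lay above both for 4610 of 12538. Foxj1 and Irf7 are examples in which HFLN was the highest group, and H3c2 is one in which it was the lowest. Lep, Fabp4 and Cidec are examples in which HFOB was the highest group, and Insig1 and Socs1 stepped down from control through HFLN to HFOB. Of these examples only Lep and H3c2 had separate intervals of HFOB and HFLN. The choice of genes by the difference between HFOB and HFLN favours these positions over others, so they are a description of the named genes.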

How the data were processed

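Messenger RNA of whole ovaries was sequenced with a stranded library kit, according to the labels. Tools listed in the submitters' processing notes are version 2.2.1.3 of Cuffdiff, version 2.2.1.0 of Cufflinks, version 2.1.0 of the aligner TopHat2 and version 0.32.3 of the read trimmer Trimmomatic, with build mm10. Neither the annotation, nor how libraries were scaled, nor the use of strand is stated there, so overlapping genes may share reads. The authors deposited FPKM per gene and group, with a lower and an upper bound of unstated confidence level. RefSeq identifiers (99.2% of 36886) were matched to symbols of GRCm38.p6, the assembly of mm10, and coordinates are its gene spans. Rows with no symbol (8920) or several (765), and 4 rows whose status was not OK, stayed out of the comparison. A gene with several rows kept the one with the highest mean FPKM.

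Log2 differences used a pseudocount of 1 FPKM, a minimum of 1 FPKM in either group, and Python 3.11.15 with pandas 2.3.3. No per-animal value was at hand, so a rule of size with separate intervals stood in for the planned linear model. The code of the rule was run on simulated data with known differences, which says nothing of the spread between animals. Named were genes with separate intervals, the 15 highest and the 15 lowest of at least 5 FPKM, the 3 highest and 3 lowest of each of 32 lists, and further members as examples of a role, chosen after their values were seen. Members and lists were chosen with earlier results of these data known, and 4 lists (feedback and acute phase, ribosome, oxidative phosphorylation, other Cfap and Drc genes) and the motif windows after values were seen. Alternatives were other pseudocounts, minimums, scalings, interval rules and row choices. Some members of the lists enter the counts and medians but are not reported here by name.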

Additional observations from a re-analysis of the deposited data

Results flagged for a closer look

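Rows of small RNA genes stayed outside the comparison of protein-coding genes, and 11 of them had a value in 1 diet group while the other diet group and control were listed at 0. In HFLN these were Snord47 at 60.4 FPKM, Mir1982 at 41.1, Mir8103 at 7.05 and Mir760 at 2.25. In HFOB they were Scarna17 at 157.8 FPKM, Mir6976 at 96.8, Mir6946 at 50.8, Snord1b at 21.7, Mir7035 at 19.7, Mir7063 at 12.1 and Mir6240 at 11.4. Snord47 is a small nucleolar RNA that lies within a host gene, and Scarna17 belongs to the small RNA of Cajal bodies. The library kit selects messenger RNA, and an exact 0 in this kind of table can be a failed estimate, so no fold is given.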

How the results depend on the processing

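A pseudocount of 0.1 gave medians of -0.98 for cilia genes and 1.35 for histones. A pseudocount of 5 left 0 genes past the rule that were higher in HFOB and 1 lower, with medians of -0.38 for cilia, -0.16 for epithelium, -0.32 for interferon genes and 0.27 for histones. At least 5 FPKM in either group left 0 higher and 1 lower past the rule and 1 with separate intervals at any fold. Medians were then -0.96 for 24 cilia genes and -0.010 for 6 histones, a reversal with 50% of them lower, and 4.55% of ribosomal protein genes were lower. With no minimum, the histone median was 0.50. Rescaling to the same protein-coding sum left 4 lower genes past the rule, adding Sec14l3 and Parvb. It gave medians of -0.87 for cilia, -0.58 for interferon, -0.34 for cholesterol and 0.16 for ribosomal protein genes. Medians of 0.035, 0.046 and 0.035 went with 44.4%, 31.2% and 34.7% of genes lower for white adipocyte, smooth muscle and oxidative phosphorylation genes. Over all genes the rescaled median was -0.12, with 82.1% lower. If each value only had to lie outside the other group's interval, 17 lower genes passed, Foxj1, Irf7, Usp18, Sntn and Dynlrb2 among them, and 40 genes were apart at any fold. With symbols of several rows left out, a setting added after seeing the data, 0 lower genes passed. Fewer genes were tested under the stricter minimum, and the cause of the other shifts was not tested. In the other 166 values of counts and lists, direction and size held within the limits set.

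No paired analysis was possible because the table has no column for each animal. Leaving out a replicate was not run, for want of the same columns.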
